A study of Mus musculus with 12 samples.

Results

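The sorted cells compared here are the 2 marker-negative fractions of EGFR+ cells from mouse glioblastomas, those without surface PDGFRA (PDGFRA-) and those without surface Galectin-1 (GAL1-). Each fraction was taken from the same 3 tumors, T3, T4 and T5, so the comparison rests on 6 of the 12 RNA-seq libraries of the series, 3 per fraction, paired by tumor, and on all 18180 genes of the deposited expression table. The tumors arose in a conditional mouse model that overexpresses human EGFR on a Cdkn2a-/-, mixed-strain background, with a conditional luciferase reporter, after a Cre-expressing lentivirus was injected into the brain of young adult mice of either sex, and were collected at end stage. All 12 libraries share that genotype. Cells were dissociated from whole tumors, stained for EGFR with an antibody to either PDGFR or Galectin-1, and sorted by FACS. Since the 2 markers were stained separately, a cell lacking both could enter either negative gate, and the fractions need not be complements of each other. The cells were described as CD45-, but the sort as detailed names antibodies to EGFR, PDGFR and Galectin-1 only. Each library is 1 fraction of 1 tumor. The spread measured is how differences between fractions vary from tumor to tumor, over the 4 sorted fractions of the series.

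PDGFRA, a receptor tyrosine kinase for PDGF ligands, marks oligodendrocyte progenitor cells (OPCs) and the OPC-like cells of glioblastoma. Galectin-1, the product of *Lgals1*, is a secreted and surface lectin that binds beta-galactosides and is made by mesenchymal-like tumor cells, endothelial cells and macrophages. As OPCs differentiate they lose PDGFRA, pass through a committed state marked by GPR17 and BCAS1, and later make the myelin proteins MBP and MAG. Glioblastomas also hold many macrophages and microglia, which carry CD45 (*Ptprc*) and are a main source of inflammatory cytokines.

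The values are TMM-normalized log2 CPM (counts scaled by library size) as deposited, and differences are PDGFRA- minus GAL1-, on the log2 scale, with the SE of a limma fit with the tumor as a block. A gene was called where its limma p-value, Benjamini-Hochberg adjusted over all 18180 genes, was under 0.05. The PDGFRA- libraries were the shallower, at 9851175 to 16516049 reads recovered from the table against 21728280 to 24117541 for GAL1-. The PDGFRA- library of T5 stood apart: it had the lowest *Egfr* and *Pdgfra* and the highest leukocyte levels of the 6 libraries, and the larger changes in the calls without that tumor are given beside the counts.

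*Pdgfra* was lower in PDGFRA- than GAL1- cells, but far from absent. In the PDGFRA- libraries of T3, T4 and T5 its log2 CPM stood at 10.11, 8.62 and 7.36, against 10.81, 10.34 and 10.49 in GAL1-. Each PDGFRA- library was below all 3 GAL1- libraries, with a gap that was smallest in T3 and largest in T5. The difference was -1.85 (SE 0.41, limma adjusted p = 0.0126), and without T5 it was -1.21 (adjusted p = 0.171). *Lgals1* had a log2 CPM of 6.99, 6.98 and 7.34 in PDGFRA- cells of T3, T4 and T5 and of 6.05, 6.28 and 6.81 in GAL1- cells. The groups did not overlap. Over all 18180 genes such a lack of overlap was seen for 3214 with PDGFRA- higher and 2034 with PDGFRA- lower. The *Lgals1* difference of 0.73 (SE 0.22, limma adjusted p = 0.0447) lost its call in 8 of 14 alternative analyses. *Egfr*, the gene of the gate that both fractions share, was at 10.18, 10.02 and 8.16 in PDGFRA- cells and at 10.65, 10.46 and 10.42 in GAL1- cells. It was lower in PDGFRA- cells by -1.06 (SE 0.32, adjusted p = 0.0425), mostly through T5, and without T5 the adjusted p was 0.16. Whether reads of the human *EGFR* transgene counted toward mouse *Egfr* cannot be told apart from these values. *Cdkn2a*, deleted in all of these mice, was still listed at 3.06 to 4.03 in PDGFRA- and 3.87 to 4.27 in GAL1- libraries with no called difference (-0.47, adjusted p = 0.185).

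**Figure D1:**
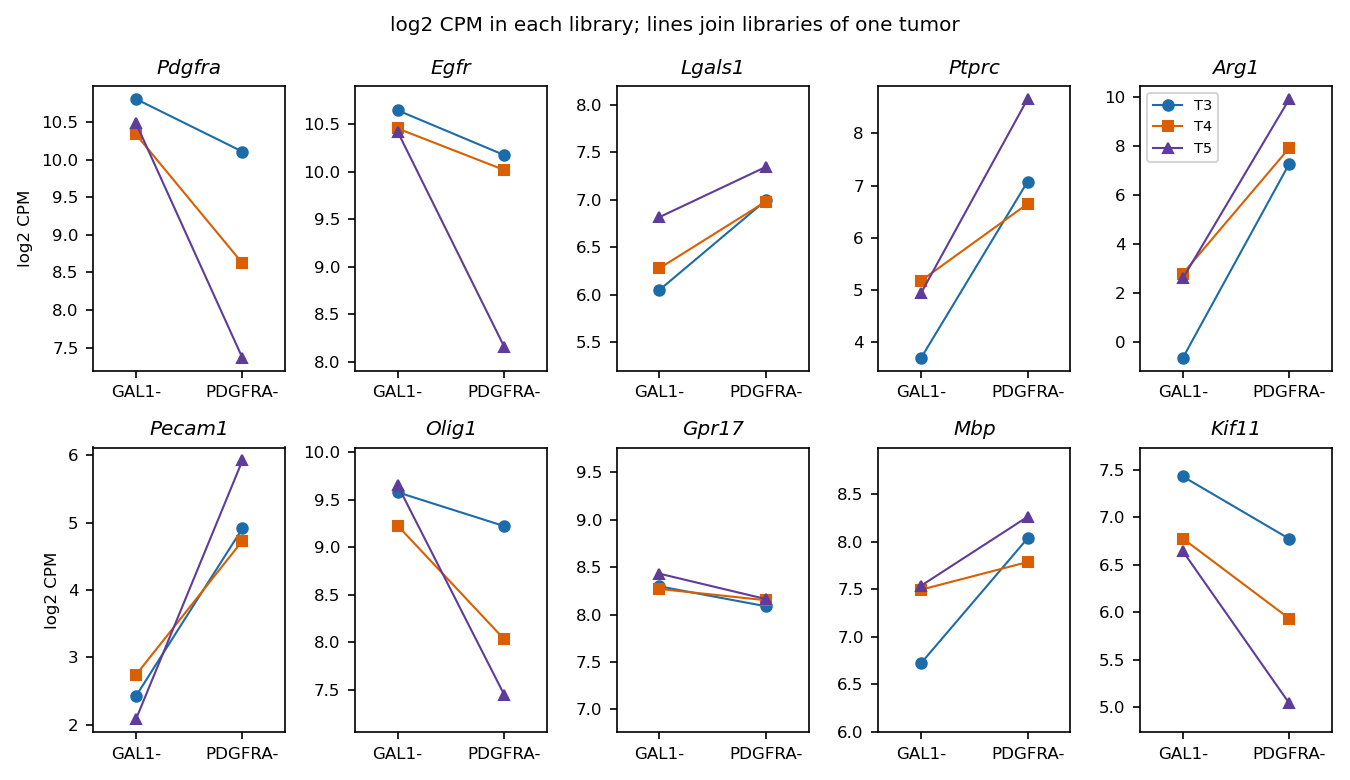
Log2 CPM of 10 genes in each PDGFRA- and GAL1- library, with a line joining the 2 libraries of a tumor. *Ptprc*, *Arg1*, *Pecam1* and *Mbp* were higher and *Pdgfra*, *Olig1* and *Kif11* lower in the PDGFRA- library of every tumor, while *Gpr17* stayed between 8.09 and 8.43 in all 6.

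Across the transcriptome 4200 of 18180 genes were called (23.1%), of which 2949 were higher in PDGFRA- cells (16.2% of genes tested) and 1251 were lower (6.88%). The 3 tumors moved the same way for 4186 of the 4200, which calling genes on these same tumors favors. Over all 18180 genes they did so for 10319. The higher genes had the wider range: their median difference was 1.45, and 1024 of them were over 4-fold and 117 over 16-fold, whereas the lower genes had a median of -0.90 and 6 were over 4-fold. The share of calls that were higher was 70.2%, and became 47.2% (2251 higher, 2514 lower) when the libraries were quantile normalized and 51.4% when each was centred on its median gene. Without T5, 901 genes were called higher and 19 lower. All 1251 genes called lower still had a difference below 0 without T5, with a median of -0.61, and 664 of them were at an unadjusted limma p under 0.05. These genes were chosen by a fit that included T3 and T4, so their direction in those tumors is no separate evidence. With no tumor block the counts were 1367 higher and 77 lower.

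**Figure D2:**
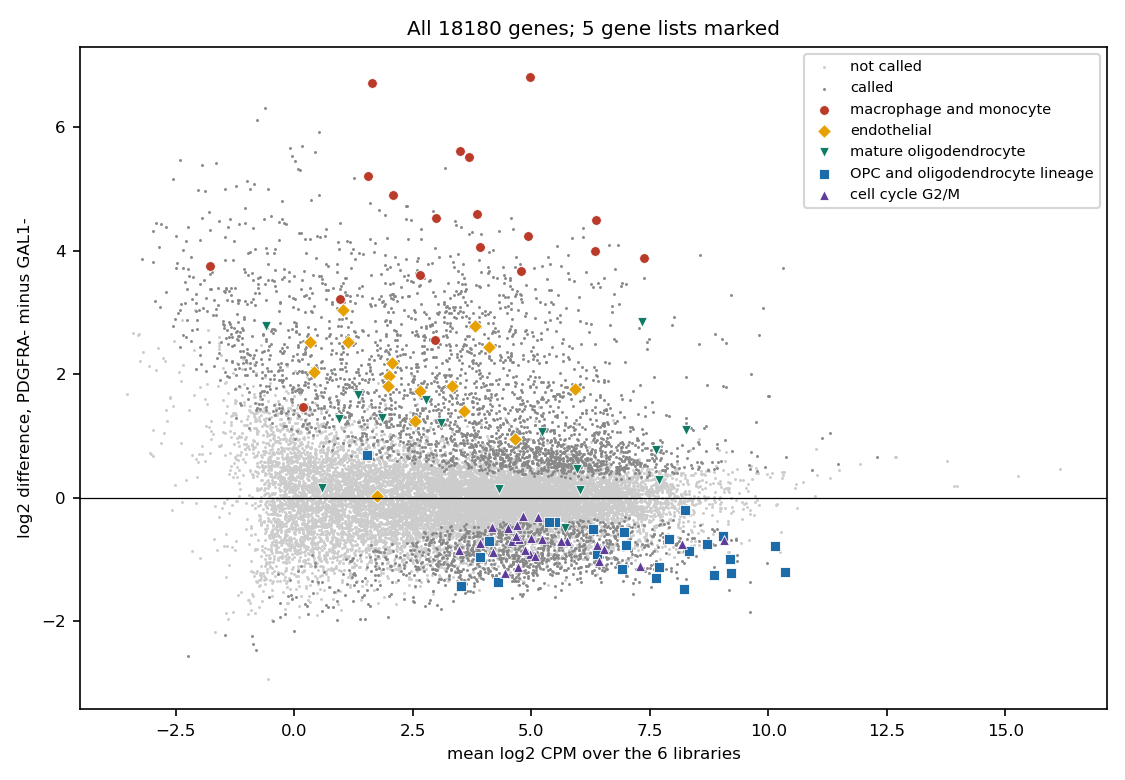
Difference of PDGFRA- minus GAL1- cells (log2) of every gene against its mean log2 CPM over the 6 libraries, with genes called by limma in dark grey, other genes in light grey, and the macrophage, endothelial, mature oligodendrocyte, OPC and G2/M lists in color. Macrophage genes lie far above 0, endothelial genes above 0, and OPC and G2/M genes in a narrow band below it.

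The largest differences were in macrophage genes. *Arg1*, the arginase of alternatively activated macrophages, was at a log2 CPM of 7.28, 7.92 and 9.93 in the PDGFRA- libraries of T3, T4 and T5 and at -0.67, 2.78 and 2.59 in GAL1-. Every PDGFRA- library was far above every GAL1- library, and the difference was 6.81 (SE 0.49, limma adjusted p = 0.000457), the largest of the genes with a mean log2 CPM of at least 3. *F13a1*, the coagulation factor XIII A chain made by monocytes and tissue macrophages, followed at 6.72 (SE 0.52). It was read from 812, 201 and 334 reads in the PDGFRA- libraries and from 10, 4 and 9 in GAL1-, so its fold rests on few GAL1- reads. The mannose receptor *Mrc1* was at 5.96, 5.39 and 7.99 in PDGFRA- and at -0.59, 1.34 and 2.02 in GAL1- libraries, a difference of 5.52 (SE 0.43). The rest of the 10 largest were *Msr1* (5.61), the scavenger receptor of macrophages, *Siglec1* (5.35), *Tlr8* (5.24), *Chil3* (4.90), *Lyz1* (4.73), *Col14a1* (4.72) and *Hal* (4.66), of which *Col14a1*, a fibril-associated collagen, is not a myeloid gene. In bulk libraries such a difference can come from more cells of a type or from more RNA of the gene per cell, and these cannot be told apart.

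Leukocyte lists were higher almost in full. All 16 pan-leukocyte genes were called higher (median difference 3.14, against 0.02 for all genes tested), as were 18 of 19 macrophage and monocyte genes (median 4.24) and 11 of 13 microglia genes (median 3.14). *Ptprc*, the CD45 gene, was at 7.08, 6.65 and 8.66 in PDGFRA- libraries and at 3.70, 5.18 and 4.94 in GAL1- libraries, a difference of 2.86 (SE 0.37, limma adjusted p = 0.00113) that stayed called without T5 (adjusted p = 0.037). *Csf1r*, the CSF1 receptor on which macrophages and microglia depend, differed by 3.71 (SE 0.51). The exception among the macrophage genes was *Cd163* (1.47, adjusted p = 0.0703), and among the microglia genes *Sall1* (-0.09), a transcription factor that neural progenitors also express, and *Siglech* (1.68). The summed level of the 16 pan-leukocyte genes was 1403, 866 and 3817 CPM in the PDGFRA- libraries of T3, T4 and T5 and 101, 275 and 223 CPM in GAL1-. None of the 16 genes was at 0 in any GAL1- library, and the smallest gap between fractions was in T4, where the median over the list was 1.54 against 3.72 in T3 and 4.17 in T5. Without T5, 14 pan-leukocyte, 17 macrophage and 4 microglia genes were called, and without T3 it was 13, 16 and 6. The leukocyte level was thus higher in the PDGFRA- library of each tumor, as a fact that stands beside every group described here, and its part in those results was not tested.

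Since *Spi1*, which encodes the myeloid transcription factor PU.1, was itself higher by 3.43 (SE 0.50, limma adjusted p = 0.00165), the letters of a PU.1 site, GAGGAAGT on either strand, were looked for in the RefSeq promoter windows, which run from 250 bases before to 50 after a gene's start. They stood in 4 of the 34 matched genes of the pan-leukocyte, macrophage and microglia lists (11.8%), 2 of 12 pan-leukocyte, 2 of 14 macrophage and 0 of 8 microglia genes, and in 459 of the 12222 measured genes with a window (3.76%). Of the 2 windows of *F13a1*, the gene with the second largest difference named above, the one shown holds the letters just after the annotated start, at chr13:37049164-37049463 on the minus strand of GRCm38.p6, with those letters in capitals.
F13a1: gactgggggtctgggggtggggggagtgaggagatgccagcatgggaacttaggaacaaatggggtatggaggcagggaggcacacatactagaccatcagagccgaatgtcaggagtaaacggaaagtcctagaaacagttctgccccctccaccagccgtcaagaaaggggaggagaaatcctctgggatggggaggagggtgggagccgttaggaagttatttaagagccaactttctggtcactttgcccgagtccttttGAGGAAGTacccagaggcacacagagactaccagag
A match of letters is a description of this window and not a bound site.

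Inflammatory genes were higher too. Of 14 CC chemokines 12 were called higher (median 2.43), led by *Ccl8* (5.92), *Ccl24* (5.70) and *Ccl12* (4.58), while *Ccl7* (0.80) and *Ccl25* (-0.43) were not called. *Ccl8* and *Ccl24* rest on 0 to 16 reads per GAL1- library. Of 12 CXC and CX3C chemokines 8 were called higher, including the platelet factor *Pf4* (5.67) and the B cell attractant *Cxcl13* (4.02), but not *Cxcl10* (0.60), *Cxcl12* (1.24) or *Cx3cl1* (-1.05). Among 23 genes of IL-1, TNF and NF-kB signaling 16 were called higher, with the inflammasome adaptor *Pycard* at 3.87, the IL-1 receptor antagonist *Il1rn* at 3.78 and *Il1b* at 3.47 (SE 0.44). *Il1b* was at a log2 CPM of 8.38, 7.76 and 9.78 in PDGFRA- and 4.36, 5.82 and 5.32 in GAL1- libraries, with no overlap. Of the IL-1 receptors, the signaling receptor *Il1r1* (-0.22) and its partner *Il1rap* (-0.65) were not called, and the decoy receptor *Il1r2*, placed in the neutrophil list, was higher (1.87, SE 0.27, adjusted p = 0.0017, and 0.0621 without T5). Of 17 genes of toll-like receptor signaling 14 were higher, and of 17 complement genes 13 were higher, led by *C3ar1* (4.41) and *C1qc* (4.37), and 1 was lower, the lectin-pathway protease *Masp1* (-1.17, adjusted p = 0.0055). Of 12 chemokine receptors 9 were higher. Without T5 the calls fell to 5 CC chemokines, 8 genes of the IL-1 list, 8 of the toll-like receptor list and 5 chemokine receptors, and without T3 to 7, 10, 8 and 5. Without the tumor block 7 CC chemokines were called.

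MHC class II and lysosomal genes were higher nearly in full, and MHC class I genes in part. All 11 MHC class II genes were higher (median 2.50), among them the cathepsin *Ctss* (3.94) and the invariant chain *Cd74*, at 10.86, 10.32 and 13.11 in PDGFRA- and 7.23, 8.93 and 8.90 in GAL1- libraries (difference 3.08, SE 0.46, adjusted p = 0.00195). With no tumor block 3 of the 11 were called, without T3 also 3, and without T5 1. MHC class I genes moved less, with 7 of 16 called higher, a median of 0.45, and *B2m* at 0.74. Limma called none of the 16 with no tumor block, with 5 at an unadjusted p under 0.05. Of 24 lysosome and cathepsin genes 23 were higher (median 2.09), with the cholesterol transporter *Npc1* (0.10, 95% interval -0.14 to 0.35) the exception. Lipid-associated myeloid genes were higher in 15 of 18, with *Trem2* at 4.64 and *Apoe* at 3.72 but *Gpnmb* at 0.90 and not called. Myeloid transcription factors were higher in 11 of 13, with *Irf8* (0.66) not called. Of 25 interferon-stimulated genes 12 were higher, with *Irf7* at 2.31 and *Oas1a* at 2.27, while *Cmpk2* (0.02) was not called. Of 19 immune checkpoint genes 13 were higher, including *Havcr2* (2.84) and *Cd274*, which encodes PD-L1 (2.66, SE 0.33), whereas *Pdcd1* (0.87) and *Ctla4* (0.80), which T cells carry, were not called. Without T5 the calls were 12 lysosomal, 9 lipid-associated, 6 transcription factor, 6 interferon-stimulated, 4 checkpoint and 1 MHC class I gene, and without T3 they were 15, 10, 5, 6, 7 and 3. Without the tumor block 6 transcription factor and 6 interferon-stimulated genes were called.

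Other leukocytes were less represented among the calls. Neutrophil genes were called higher in 5 of 9 (median 1.20), with *Csf3r* at 2.46 but *S100a8* at 0.27 and *S100a9* at 0.39. T and NK cell genes were higher in 3 of 16, *Klrb1c* (2.55), *Cd4* (1.67) and *Cd5* (1.60), while the T cell receptor chain *Cd3e* (0.96) and *Cd8a* (0.30) were not called. That share, 18.8%, was near the 16.2% called higher over all genes tested. The T and NK list was low, summing to 59.1 to 84.9 CPM in PDGFRA- and 18.1 to 52.1 CPM in GAL1- libraries. Neutrophil genes summed to 123 to 335 CPM in PDGFRA- and 34.7 to 91.8 CPM in GAL1- libraries. Dendritic cell genes were higher in 6 of 10, including *Itgax* (3.13), *Clec10a* (1.78), *Batf3* (1.68) and *Flt3* (1.61), but limma called none without T5 (4 at an unadjusted p under 0.05) or without T3 (5 at an unadjusted p under 0.05). Of 10 listed B cell genes only 3 were measured, of which *Cd22* (4.13) and *Ighm* (2.57) were higher and *Jchain* (0.20) was not called. *Cd22* rests on 2.25, 26.5 and 20.1 reads in the GAL1- libraries, and averaged 4.77 in GAL1+ libraries. Of 5 erythroid genes 2 were higher. The 5 summed to only 87.9, 12.8 and 16.3 CPM in the PDGFRA- libraries of T3, T4 and T5 and to 16.7, 5.32 and 9.48 CPM in GAL1-. Limma called none of the 5 without T3, without T5 (5 at an unadjusted p under 0.05) or with no tumor block. Without T5, 1 neutrophil and 1 T and NK cell gene were called.

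Endothelial and mural genes were higher in PDGFRA- cells as well, and here the list medians were not largest in T5. Of 16 endothelial genes 14 were called higher, with a median of 1.88 and of 2.48, 1.52 and 1.46 in T3, T4 and T5. *Pecam1*, the endothelial adhesion molecule CD31, was at 4.91, 4.73 and 5.92 in PDGFRA- libraries and at 2.42, 2.74 and 2.08 in GAL1- libraries, with no overlap (difference 2.77, SE 0.33, limma adjusted p = 0.00085). The blood-brain barrier transporter *Slco1a4* was at 3.21, 3.22 and 1.25 against -0.19, 0.44 and -1.72 (3.05, SE 0.23), and the co-receptor *Eng* at 5.01, 5.73 and 5.24 against 2.54, 3.75 and 2.39 (2.43, SE 0.20). The exceptions were *Erg* (0.02) and *Vwf* (0.94). Of 16 mural and fibroblast genes 9 were higher, led by *Anpep* (3.74), *Abcc9* (2.46) and the pericyte regulator *Rgs5* (2.30), while *Col1a1* (1.11) and *Lum* (-1.26) were not called. Unlike the list medians, *Pecam1*, *Eng*, *Anpep* and *Abcc9* differed most in T5 (3.84, 2.86, 5.25 and 2.86). The endothelial genes *Kdr* and *Vwf* differed least there (0.75 and -0.12). Without T5, 15 endothelial and 11 mural genes were called, without T3 10 and 5, and with no tumor block 4 of each. The endothelial list summed to 321 to 373 CPM in PDGFRA- and 74.2 to 137 CPM in GAL1- libraries, below the leukocyte sums in the PDGFRA- libraries.

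**Figure D3:**
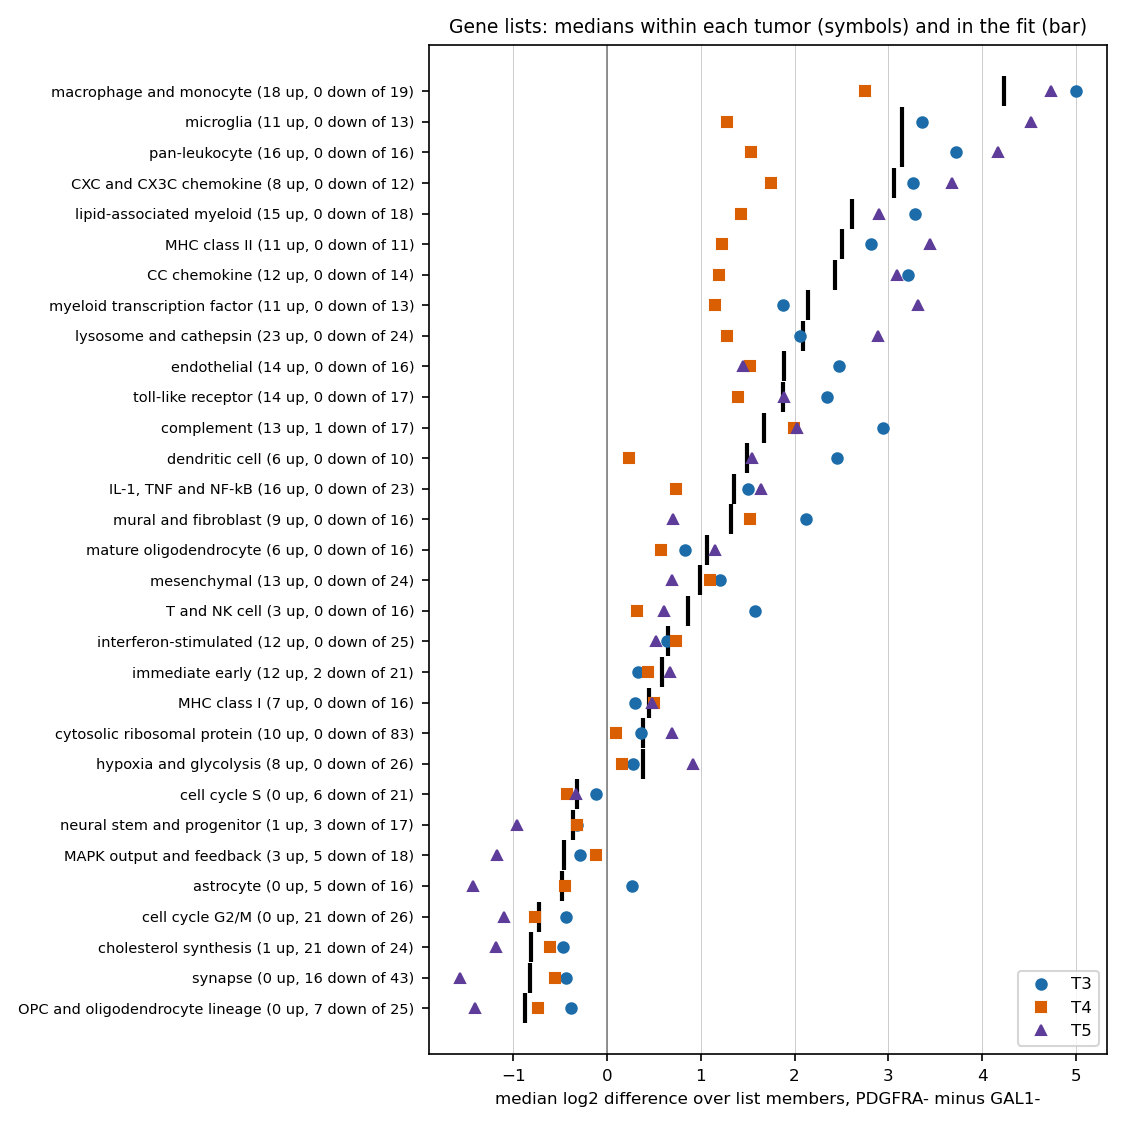
Median difference of PDGFRA- minus GAL1- cells (log2) over the members of 31 gene lists, with symbols for T3, T4 and T5 and a bar for the median of the fitted differences. The macrophage list has a median of 2.75 in T4 and higher medians in T3 and T5, while OPC, synapse, G2/M and cholesterol synthesis medians are below 0 and lowest in T5.

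OPC genes were lower, with values below 0 for 24 of 25 members, and 7 of the 25 were called (median -0.87, with -0.38 in T3, -0.74 in T4 and -1.41 in T5). The called genes were *Cspg5* (-1.48), *C1ql1* (-1.38), *Cacng4* (-1.30), *Olig1* (-1.25), *Ptprz1* (-1.20), *Lhfpl3* (-1.15) and *Sox6* (-0.87). *Cspg5*, a brain proteoglycan, was at 8.36, 7.49 and 6.60 in PDGFRA- and 8.88, 8.79 and 9.24 in GAL1- libraries, all 3 PDGFRA- libraries being below all 3 of GAL1-. The lineage factors *Olig2* (-0.91, adjusted p = 0.0588) and *Sox10* (-0.67) and the NG2 gene *Cspg4* (-0.99) were not called. Limma called no OPC gene without T5 (4 at an unadjusted p under 0.05) or with no tumor block (10 at an unadjusted p under 0.05), while 11 were without T3, and 16 were under quantile normalization.

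Genes of the later oligodendrocyte lineage did not follow the OPC genes. *Gpr17* was at 8.09, 8.15 and 8.16 in PDGFRA- and 8.30, 8.27 and 8.43 in GAL1- libraries, a difference of -0.20 (95% interval -1.04 to 0.64), and *Bcas1* differed by -0.00 (95% interval -0.48 to 0.48). *Enpp6*, of newly formed oligodendrocytes, was at 0.79 and not called (adjusted p = 0.0839). Of 16 mature oligodendrocyte genes 6 were called higher and none lower (median 1.07). *Mbp*, the myelin basic protein gene, was at 8.04, 7.79 and 8.26 in PDGFRA- and 6.72, 7.49 and 7.54 in GAL1- libraries. It was higher in the PDGFRA- library of each tumor, least in T4, and the groups did not overlap (0.78, SE 0.19, limma adjusted p = 0.0195). The groups did not overlap for the myelin-associated glycoprotein *Mag* either, which was at 5.34, 5.57 and 6.34 against 4.42, 4.84 and 4.82 (1.05, SE 0.31, adjusted p = 0.0379). *Trf* (2.84), the transferrin gene, *Aspa* (2.78) and *Mal* (1.58) were also called, and *Cnp* (0.28), *Cldn11* (0.13), *Mobp* (1.21), *Mog* (1.30) and *Ugt8a* (-0.49) were not. The median over the 16 genes was 0.84, 0.58 and 1.15 in T3, T4 and T5. The number called was 5 without T4, 3 without T3 and 1 with no tumor block, and limma called none without T5, with 6 at an unadjusted p under 0.05. *Trf* is not particular to oligodendrocytes, and it was at 9.63 to 10.39 in the GAL1+ libraries.

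**Figure D4:**
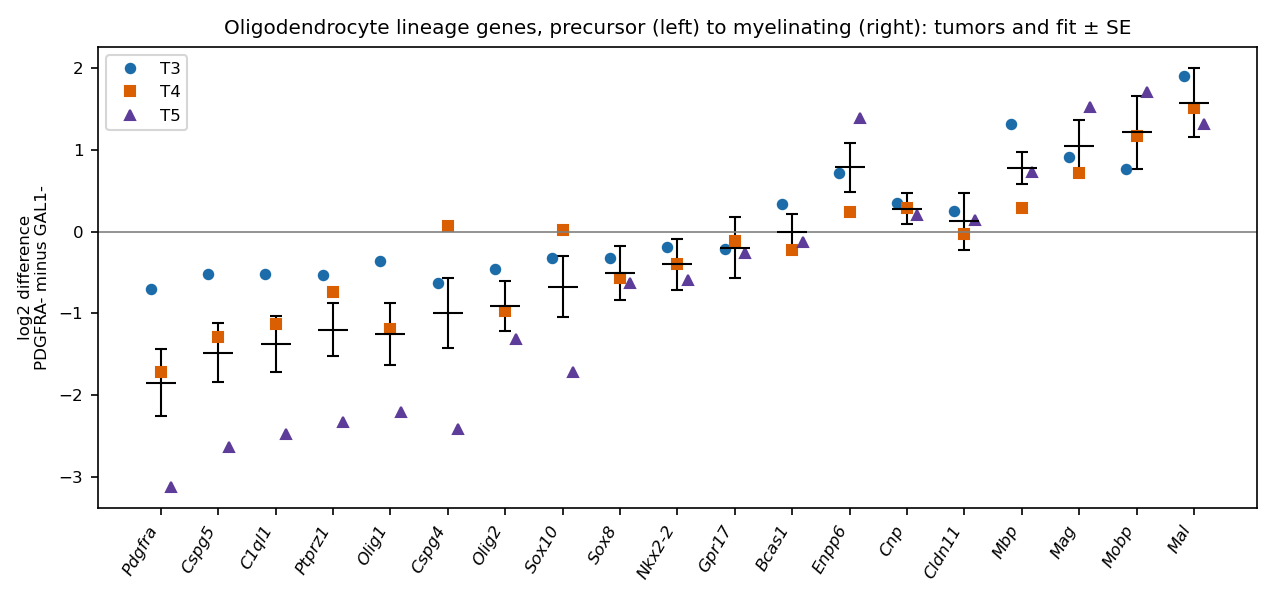
Difference of PDGFRA- minus GAL1- cells (log2) for 19 genes ordered from OPC to myelinating oligodendrocyte, with symbols for T3, T4 and T5 and the fitted difference with its SE. *Pdgfra* is at -1.85 and *Olig1* at -1.25, *Gpr17* and *Bcas1* lie near 0, and *Mbp*, *Mag* and *Mal* lie between 0.78 and 1.58.

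The GAL1+ libraries gave a second reference for these genes. The 2 comparisons share the PDGFRA- libraries and so are not independent. Of all genes tested, 2395 (13.2%) were higher and 1257 (6.91%) lower in PDGFRA- than GAL1+ cells, a count that was 0 without T4 (3649 at an unadjusted p under 0.05). Against GAL1+ cells, 23 of 25 OPC genes (median 1.78) and 13 of 16 mature oligodendrocyte genes (median 2.27) were higher. *Gpr17*, near equal in the 2 negative fractions, was 3.01 above GAL1+ cells (SE 0.37, limma adjusted p = 0.00441), *Bcas1* 2.33 and *Mbp* 1.66. The summed mature oligodendrocyte genes stood at 1351, 1770 and 2120 CPM in the PDGFRA- libraries, above the 671 to 1066 CPM of GAL1-, 781 to 1139 CPM of PDGFRA+ and 1125 to 1581 CPM of GAL1+ libraries, apart from T3, which fell within the GAL1+ range. Without *Trf* the same sums were 1055 to 1413 CPM in PDGFRA- libraries, against 646 to 932 CPM in GAL1-, 458 to 605 CPM in PDGFRA+ and 235 to 392 CPM in GAL1+, and the PDGFRA- libraries overlapped no other fraction. The pan-leukocyte sum, 866 to 3817 CPM in PDGFRA- libraries, was 3546 to 4955 CPM in GAL1+ and 793 to 1894 CPM in PDGFRA+ libraries. Of the myeloid and lysosome lists, 8 of 19 macrophage genes, 8 of 13 microglia genes and 23 of 24 lysosome genes were lower in PDGFRA- than GAL1+ cells. By contrast 4 of 16 T and NK cell genes were higher, *Cd2* (1.54), *Cd3g* (1.53), *Lck* (1.38) and *Il2rb* (0.96). So were *Itgae* (2.23), *Flt3* (1.90) and *Fscn1* (1.13) of the dendritic cell list. *Fscn1* averaged 7.98 in GAL1- and 6.41 in GAL1+ libraries, the reverse of *Itgax* of that list (3.89 and 8.49). Against PDGFRA+ cells, the fraction from the same stain, no gene was called by limma, with 2137 at an unadjusted p under 0.05. *Pdgfra* itself averaged 10.30 in PDGFRA+ and 8.70 in PDGFRA- libraries.

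**Figure D5:**
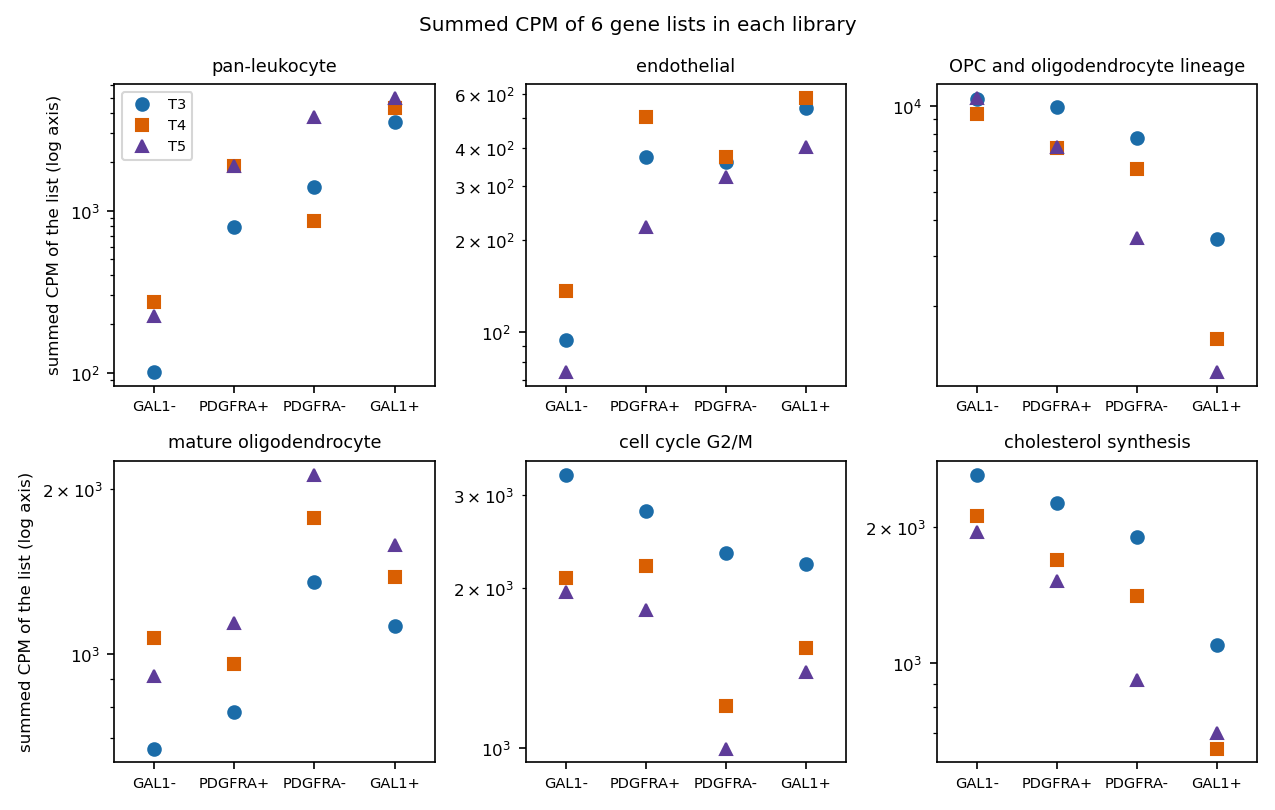
Summed CPM (log axis) of 6 gene lists in each library of the GAL1-, PDGFRA+, PDGFRA- and GAL1+ fractions. The pan-leukocyte sum runs from 101 to 275 in GAL1- to 3546 to 4955 in GAL1+ libraries, and the mature oligodendrocyte sum is highest in PDGFRA- libraries of T4 and T5.

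Synapse genes were lower, and astrocyte, stem and neuronal genes less uniformly so. Of 43 synapse genes 16 were called lower and none higher (median -0.82), with the adhesion molecules *Cntn1* at -1.50, *Lrrtm3* at -1.24 and *Nlgn3* at -1.10 and the glutamate receptor *Gria4* at -1.09. *Cntn1* was at 9.66, 8.37 and 7.22 in PDGFRA- and at 10.21, 9.80 and 9.76 in GAL1- libraries, with the smallest gap in T3 and the largest in T5. Astrocyte genes were lower in 5 of 16, led by the glutamate transporter *Slc1a2* (-1.57), but their median was 0.27 in T3 and -1.43 in T5, and *Gfap* was at 0.30 and not called. Without T5 no astrocyte gene was called lower by limma, and 1 was called higher, *Gfap* (1.00, adjusted p = 0.0426), with 3 of the 16 at an unadjusted p under 0.05. Of 17 neural stem and progenitor genes 3 were lower, *Sox2* (-0.79) among them, and *Id1* was higher (1.03). Of 11 neuronal genes 1 was lower, *Gad1* (-1.15), a share of 9.09% against 6.88% of all genes tested. Neither list had a limma call without T5, with 1 stem and 2 neuronal genes at an unadjusted p under 0.05. Limma called no synapse gene without T5 (8 at an unadjusted p under 0.05) or with no tumor block (22 at an unadjusted p under 0.05), 10 without T3, and 27 under quantile normalization. Among genes with a mean log2 CPM of at least 3, those with the largest lower differences after *Pdgfra* were *Tmem255a* (-1.68), *Wnt7b* (-1.63), the nicotinic receptor subunit *Chrna4* (-1.60), the E3 ligase *Lnx1* (-1.60), *Slc1a2*, the activity-induced factor *Npas4* (-1.56), *Lpo* (-1.56), *Rorb* (-1.56) and *Wnt7a* (-1.54). *Wnt7a* and *Wnt7b* are the Wnt ligands by which OPCs act on vessels.

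The ligands and receptors of the EGFR and PDGF families were split. Of 13 EGFR family genes, *Egfr*, *Erbb4* (-1.14) and the ligand *Tgfa* (-0.92) were called lower. *Tgfa* was at 7.49, 7.21 and 6.17 in PDGFRA- and 8.01, 7.74 and 7.87 in GAL1- libraries. The study's methods name a TGFa-IRES-iCre lentivirus beside an iCre one, and do not say which began these tumors. Whether reads of such a vector counted toward *Tgfa* cannot be told apart from these values. *Hbegf*, another EGFR ligand, was at 5.15, 6.69 and 4.62 against 4.85, 5.70 and 5.95 and overlapped between fractions (-0.02, 95% interval -0.98 to 0.95). *Ereg* (-1.71), *Btc* (-1.03), *Nrg2* (-0.71), *Areg* (-0.23), *Erbb3* (-0.09), *Nrg1* (0.02), *Egf* (0.04) and *Erbb2* (0.14) were not called, and *Nrg4* was called higher from 17, 4 and 2 reads against 0, 2 and 1. Of 6 PDGF family genes, *Pdgfb* (2.48, adjusted p = 0.002), *Pdgfrb* (2.13), *Pdgfd* (2.08, from 1 to 17 reads per library) and *Pdgfa* (0.76) were higher, *Pdgfra* lower, and *Pdgfc* (0.18) was not called. Without T5 2 PDGF family genes were called higher and none lower, and without T3 1 was higher. Besides *Lgals1*, 3 of 8 measured galectin genes were higher, *Lgals3* (3.55), *Lgals3bp* (2.11) and *Lgals9* (1.84), while *Lgals8* (0.36), *Lgals4* (0.05), *Lgals7* (-0.03) and *Lgalsl* (-0.80) were not called. *Lgals3*, a macrophage galectin, was at 5.97, 5.42 and 7.57 in PDGFRA- and 1.09, 2.65 and 4.55 in GAL1- libraries. Of 18 genes of MAPK output and feedback 5 were lower, the ETS factors *Etv4* (-1.15) and *Etv5* (-0.48), *Spry1* (-0.83), *Spred3* (-0.75) and *Egr1* (-0.69), and 3 higher, *Dusp5* (1.15), *Ier3* (1.05) and *Errfi1* (0.90), and none of the 18 was called by limma without T5, with 7 at an unadjusted p under 0.05. Without T5 none of the EGFR family was called either, with 4 at an unadjusted p under 0.05.

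Genes of G2 and mitosis were lower. All 26 G2/M genes had a difference below 0 and 21 were called (median -0.72, with -0.43, -0.77 and -1.10 in T3, T4 and T5). *Cdc20*, the activator of the anaphase-promoting complex, was at 5.07, 3.70 and 2.76 in the PDGFRA- libraries and 5.67, 4.84 and 4.67 in GAL1-. The T3 library of PDGFRA- was above the T4 and T5 libraries of GAL1-, so the fractions overlapped across tumors while each tumor moved down (-1.22, SE 0.23, limma adjusted p = 0.00567). The spindle motor *Kif11* was at 6.77, 5.93 and 5.04 against 7.43, 6.78 and 6.64 (-1.03, SE 0.18, adjusted p = 0.00354), with the T3 library of PDGFRA- above the T5 library of GAL1-, and *Mki67* at 9.39, 8.40 and 8.40 against 9.93, 9.27 and 9.05 (-0.68, SE 0.13, adjusted p = 0.00554). *Ccnb1* (-1.12), *Cenpf* (-1.11) and *Top2a* (-0.76) were also lower, and *Cenpa* (-0.30) and *Anln* (-0.32) were not called. Of the 26 genes, 16 were called without T3, 13 without T4 and 1 without T5, where 21 were at an unadjusted p under 0.05. With no tumor block limma called none, with 8 at an unadjusted p under 0.05. The gene still called without T5 was *Kif11* (-0.75, adjusted p = 0.0344), and the 19 genes called lower without T5 over all genes included *Aspm* and *Ncapd2*, of the spindle and of condensin. Of 21 S phase genes 6 were lower (median -0.32), with *Rrm2* at -0.75 and *Mcm3* at 0.05. Of 63 replication-dependent histones 1 was lower (1.59%, below the 6.88% of all genes tested). Of the S phase genes 3 were called without T3, and limma called none without T4 (5 at an unadjusted p under 0.05), without T5 (6 at an unadjusted p under 0.05) or with no tumor block (1 at an unadjusted p under 0.05). Against GAL1+ cells the G2/M genes had a median of -0.15 and 1 was called lower, *Mki67* (-0.48). The summed G2/M genes were at 2328, 1199 and 998 CPM in PDGFRA- and 3273, 2089 and 1968 CPM in GAL1- libraries.

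Promoters of G2/M genes are known for CCAAT boxes, which bind NF-Y, placed near a cell cycle homology region (CHR), which binds the DREAM and MuvB complexes. The letters CCAAT and TTTGAA, the latter for the CHR, were looked for on both strands of the RefSeq windows, where a match of the one can share a base at its end with a match of the other. CCAAT stood in 19 of 22 matched G2/M genes (86.4%) and 42.6% of all 12222 windows of measured genes, TTTGAA in 17 of 22 (77.3%) and 15.1%, and both in 16 of 22 (72.7%) and 6.28%. The windows of *Cdc20*, at chr4:118437294-118437593 on the minus strand, *Kif11*, at chr19:37376132-37376431 on the plus strand, and *Ccnb1*, at chr13:100786437-100786736 on the minus strand of GRCm38.p6, are shown because these genes carry the finding, with both motifs in capitals (CCAAT or, on the other strand, ATTGG, and TTTGAA or TTCAAA).
Cdc20: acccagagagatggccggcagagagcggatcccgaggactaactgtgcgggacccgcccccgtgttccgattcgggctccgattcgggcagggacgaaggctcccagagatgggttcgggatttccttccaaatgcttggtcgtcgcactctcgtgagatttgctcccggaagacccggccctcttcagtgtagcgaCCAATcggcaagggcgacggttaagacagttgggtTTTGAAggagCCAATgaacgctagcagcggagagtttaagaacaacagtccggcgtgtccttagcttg
Kif11: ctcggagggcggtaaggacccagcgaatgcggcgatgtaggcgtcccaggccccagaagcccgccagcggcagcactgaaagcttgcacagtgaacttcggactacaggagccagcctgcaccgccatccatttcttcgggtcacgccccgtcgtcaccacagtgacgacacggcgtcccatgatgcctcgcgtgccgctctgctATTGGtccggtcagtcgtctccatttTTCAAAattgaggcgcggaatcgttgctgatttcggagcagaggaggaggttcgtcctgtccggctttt
Ccnb1: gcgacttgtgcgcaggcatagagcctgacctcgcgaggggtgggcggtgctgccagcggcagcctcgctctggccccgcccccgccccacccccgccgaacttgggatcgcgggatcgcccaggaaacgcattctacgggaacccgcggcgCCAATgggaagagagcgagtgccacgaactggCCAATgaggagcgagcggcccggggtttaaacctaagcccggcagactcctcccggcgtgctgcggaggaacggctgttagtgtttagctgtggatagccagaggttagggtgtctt
*Cdc20* and *Kif11* hold both motifs close together and shortly before the start, and *Ccnb1* holds CCAAT at 2 places and not these CHR letters.

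Cholesterol synthesis genes were lower as a group, with 21 of 24 called lower and 1 higher (median -0.81). *Msmo1*, the sterol C4-methyl oxidase, was at 6.56, 6.00 and 4.98 in PDGFRA- and 7.19, 6.71 and 6.69 in GAL1- libraries, with no overlap (-1.02, SE 0.21, limma adjusted p = 0.00982). *Acat2* (-0.98) and *Sqle* (-0.98), the squalene epoxidase, were lower too, and the isomerase *Ebp* was higher (0.52, SE 0.15, adjusted p = 0.0322). Against GAL1+ cells 18 of the 24 were higher in PDGFRA- cells. Without T3 8 were called lower, without T4 12 and with no tumor block 1, and limma called none without T5, with 19 at an unadjusted p under 0.05.

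Mesenchymal, stress and signaling lists were mixed. Of 24 mesenchymal genes 13 were higher (median 0.99), with *Tgfbi* at 3.99, *Lgals3* at 3.55 and *Cd44* at 0.94, but the intermediate filament *Vim* was at 0.23 (95% interval -0.17 to 0.63), and *Tnc* (-0.66) and *Igfbp3* (-0.78) were not called. *Tgfbi* and *Lgals3* are also made by macrophages. Of 21 immediate early genes 12 were higher, with *Nr4a2* at 2.02 and *Btg2* at 1.82, and *Npas4* and *Egr1* were lower. *Fos* lay close together in each tumor, at 9.82, 9.85 and 9.37 against 9.79, 10.08 and 9.38 (-0.07, 95% interval -0.32 to 0.18). Of 26 hypoxia and glycolysis genes 8 were higher, with *Ndrg1* at 1.87. Of 23 TGF-beta and BMP genes 9 were higher, with *Smad6* at 3.02 and *Tgfb1* at 2.95, and *Bmp7* (-1.33) and *Bmpr1b* (-1.34) were lower. Of 19 Notch genes 7 were higher, with *Dll4* (2.47) and *Notch4* (1.89) of endothelium among them, and *Maml2* (-0.58) was lower. Of 23 Wnt genes *Fzd7* (2.09) and *Lrp5* (0.61) were higher and *Wnt7a*, *Wnt7b* and *Fzd9* (-1.35) lower. The share of Wnt genes called higher, 8.7%, was below the 16.2% of all genes tested, and the list median was 0.014. The share called lower was above the 6.88% of all genes tested. Proteases and their inhibitors were higher in 11 of 22, with the macrophage elastase *Mmp12* at 4.35, and lower in 3, *Mmp15* (-1.37) among them. Of 26 matrix genes 5 were higher (19.2%), of 32 axon guidance genes 3 were higher and 3 lower (9.38% each), and of 83 ribosomal protein genes 10 were higher (12.0%, median 0.39). These shares were near or below the 16.2% higher and 6.88% lower of all genes tested. Of the 13 protein genes of the mitochondrial genome limma called none (median 0.40), with 2 at an unadjusted p under 0.05. Without T3 the numbers called higher were 7 mesenchymal, 4 immediate early, 1 hypoxia, 4 TGF-beta and BMP, 3 Notch and 1 ribosomal protein gene, and with no tumor block 8, 6, 3, 4, 3 and 1. Without T5 the numbers called higher were 6 immediate early, 1 hypoxia, 3 TGF-beta and BMP, 2 matrix and 1 Wnt gene. No ribosomal protein gene was called by limma without T5, with 2 at an unadjusted p under 0.05. Axon guidance genes had no limma call without T5 either, with 6 at an unadjusted p under 0.05. The lower calls of the immediate early, TGF-beta and BMP, Notch, Wnt and protease lists were all lost without T5.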

How the data were processed

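RNA was profiled in 12 libraries of sorted EGFR+ cells, a GAL1-, GAL1+, PDGFRA- and PDGFRA+ library from each of 3 tumors, and groups were taken from the labels. Per the study's methods, cells were sorted on a FACS Aria and libraries were made with a SMARTer Stranded Total RNA-seq Pico kit. Reads were trimmed with fastp, aligned to mm39 with STAR and counted over exons with featureCounts, with multimapping reads shared out, so values of near-identical genes are uncertain. The strand setting of the counting is not given in the sources used here, so overlapping antisense genes cannot be told apart. The authors kept genes above 1 CPM in at least 3 libraries, and deposited TMM-normalized voom log2 CPM values. Reads per library were recovered from the spacing of the lowest values, and 41.3 to 59.2% of values came out within 0.01 of a whole number, as fractional counting allows, so no count test was run. A count of 3 reads corresponds to a log2 CPM of -2.99 to -1.44, and 44 genes called higher had no more than that in any GAL1- library, so their fold is uncertain.

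Differences were fitted with limma 3.58.1 in R 4.3.3 (lmFit, contrasts.fit and eBayes with a trend) on the log2 values of all 12 libraries, with the tumor as a block as in the study's methods, and p-values were adjusted over 18180 genes by Benjamini-Hochberg. The fit had 6 residual degrees of freedom. The pairing comes from the labels, and the deviations of the 2 libraries of a tumor correlated across genes at 0.581, 0.361 and 0.459 in T3, T4 and T5. The members and gene lists were chosen with earlier results of these data known. Named genes are the sort and model genes, the 10 largest called differences in each direction with a mean log2 CPM of at least 3, the 2 highest and 2 lowest members of each list, and the EGFR, PDGF and galectin lists. Other genes were named after their values were seen. The fitting was tested on simulated data, and figures were drawn in Python 3.11.15 with matplotlib 3.10.9. A few genes are not reported here by name, though list counts include them.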

Additional observations from a re-analysis of the deposited data

How the results depend on the processing

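Of 14 alternatives, none reversed a called difference of a named gene, and the number of genes called depended most on the tumors. The 4200 calls (2949 higher, 1251 lower) were 920 to 3287 when a tumor was left out (901 to 2461 higher, 19 to 826 lower), the lowest without T5, and 2009 (1789 and 220) without the PDGFRA- library of T5 alone, an alternative chosen after seeing the data. With no tumor block, the pairing being ignored, they were 1444 (1367 and 77), and with only the 6 libraries, which has fewer degrees of freedom, 1328 (1205 and 123). Lower calls were 827 without a trend, 2514 under quantile normalization and 2314 under median centring, which moved the median of all genes to -0.12 and -0.07. The 3652 calls against GAL1+ cells were 725 with no block and 0 to 3647 when a tumor was left out, and against PDGFRA+ cells none was called in any of these. *Pdgfra* (-1.85) lost its call with no block (adjusted p = 0.122), with only the 6 libraries (-1.85, adjusted p = 0.0659) and without T5 (-1.21, against -2.43 without T3). *Lgals1* (0.73) lost its call with no block (0.73, adjusted p = 0.112), with only the 6 libraries (0.73), without a trend (0.73), under quantile normalization (0.63), without the PDGFRA- library of T5 (0.71) and without any 1 tumor (0.62 to 0.82). *Ptprc* kept its call in all 14. Of the 128 called genes that the naming rule gave, besides *Pdgfra*, *Lgals1* and *Ptprc*, 74 kept their call with no block, 78 with only the 6 libraries, 82 without T3, 105 without T4, 55 without T5 and 117 or more under each change of filter, scaling, weighting or pseudocount.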
